A study of Mus musculus with 6 samples.

Results

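The Eph receptors, ephrins, semaphorins and plexins are the receptors and ligands of the cell guidance systems examined here, in fibroblasts with raised expression of the histone demethylase Fbxl10. Members were taken by symbol, as all genes named Epha, Ephb, Efna or Efnb with a number or with a name that starts with Sema or Plxn. This gave 50 genes among 19936 with a probe set of a single gene, 28 of them ligands (8 ephrins and 20 semaphorins) and 22 receptors (13 Eph receptors and 9 plexins). A further 1 gene of the RefSeq list with such a symbol was not analysed here.

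Eph receptors are receptor tyrosine kinases that bind ephrins on the surface of a neighbouring cell. Ephrin-A proteins are held in the membrane by a lipid anchor and ephrin-B proteins span it, and signals can run into either cell, with cell repulsion, sorting and boundary formation as known outcomes. Class 3 semaphorins are secreted and bind neuropilins, which signal through plexins. Semaphorins of classes 4 to 6 span the membrane and the class 7 member is lipid-anchored. Plexins act on small GTPases inside the cell and so change adhesion and the actin cytoskeleton. In fibroblasts these systems are known for contact repulsion and for positioning cells in connective tissue.

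RNA was measured on 6 Affymetrix arrays, 3 per group. The control group was a stable Tet-off line of mouse embryonic fibroblasts that received no plasmid. HA-Fbxl10 cells were the same line transfected with an HA-tagged Fbxl10 cDNA and a plasmid for hygromycin resistance, and were taken from clones selected for HA-Fbxl10. Tet-off lines carry a tetracycline-controlled transactivator, so both groups share it. Since no cells with an empty vector were analysed here, effects of Fbxl10, transfection and clone selection cannot be told apart. The labels do not say how many clones were used or that samples came from separate cultures, so p-values measure the spread between these RNA samples, which may be technical. Kdm2b, the current symbol of Fbxl10, read 7.38, 7.45 and 7.28 on the control arrays and 9.77, 9.75 and 9.58 on the HA-Fbxl10 arrays (log2 level). Correlations over genes were 0.997 to 0.998 within groups and 0.991 to 0.992 between them. Of 14 fibroblast markers, 10 lay above the median level of all genes, with Lum, Fap, Dcn and Thy1 below it, and 4 fell (Col3a1, Pdgfra, Prrx1 and S100a4, with Pdgfra not past the threshold without any 1 array other than replicate 2 of control or 3 of HA-Fbxl10, adjusted p of 0.0703 to 0.0977). All 4 were among the 10 above the median level, a share near the 37% of all such genes that passed at an adjusted p under 0.05 (limma). The mean level of the fibroblast list was 8.58 to 8.62 on control arrays and 8.38 to 8.45 on HA-Fbxl10 arrays. None of 8 endothelial markers lay above that median, and of these only Kdr passed the test. For macrophage, epithelial and muscle lists of 6 markers each, 2, 1 and 1 lay above it, and in these lists only the macrophage marker Cd14 passed the test (-0.45, adjusted p = 0.0357). Of 8 neuronal markers 3 lay above it (Stmn2, Gap43 and Map2), and the list had 3 members lower and 1 higher. That is 4 of 8, against 21.1% of all genes, and the 3 above the median level all passed. The mean level of the neuronal list was 5.83 to 5.92 in control and 5.66 to 5.77 in HA-Fbxl10 samples, and its part in the changes below was not tested. In a bulk sample, fewer cells of a type and less RNA per cell cannot be told apart.

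Promoters are shown for the 3 members with the largest changes, Sema3c, Ephb6 and Efnb2, and for the other 3 class 3 semaphorins that lie beside Sema3c on chromosome 5. Fbxl10 has a zinc finger domain that binds unmethylated CpG dinucleotides, and the capitals mark each CG. CG reads the same on the opposite strand, so 1 strand holds every match. The windows are the 250 bases before the annotated start, 5′ to 3′ on the gene's strand, from RefSeq on GRCm38.p6. Sema3c lies at chr5:17574566-17574815 (plus strand, 39 CG), Sema3a at chr5:13396534-13396783 (plus, 2 CG), Sema3d at chr5:12382916-12383165 (plus, 4 CG) and Sema3e at chr5:14025026-14025275 (plus, 7 CG). Efnb2 lies at chr8:8661243-8661492 (minus strand, 27 CG) and Ephb6 at chr6:41605261-41605510 (plus strand, 27 CG).
Sema3c: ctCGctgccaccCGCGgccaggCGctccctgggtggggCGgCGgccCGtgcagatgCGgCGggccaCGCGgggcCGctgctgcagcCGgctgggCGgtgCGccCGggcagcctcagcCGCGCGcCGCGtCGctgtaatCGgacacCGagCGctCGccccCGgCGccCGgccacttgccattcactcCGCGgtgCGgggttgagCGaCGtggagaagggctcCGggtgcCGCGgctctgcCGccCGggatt
Sema3a: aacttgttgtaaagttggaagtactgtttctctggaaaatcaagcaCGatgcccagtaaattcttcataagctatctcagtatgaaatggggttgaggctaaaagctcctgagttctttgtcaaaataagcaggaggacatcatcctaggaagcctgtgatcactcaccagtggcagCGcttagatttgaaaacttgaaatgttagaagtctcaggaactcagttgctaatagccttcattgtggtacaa
Sema3d: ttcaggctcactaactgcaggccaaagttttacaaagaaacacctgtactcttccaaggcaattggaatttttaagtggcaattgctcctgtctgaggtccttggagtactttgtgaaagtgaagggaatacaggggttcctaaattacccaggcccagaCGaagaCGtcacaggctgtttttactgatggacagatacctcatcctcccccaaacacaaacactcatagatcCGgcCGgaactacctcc
Sema3e: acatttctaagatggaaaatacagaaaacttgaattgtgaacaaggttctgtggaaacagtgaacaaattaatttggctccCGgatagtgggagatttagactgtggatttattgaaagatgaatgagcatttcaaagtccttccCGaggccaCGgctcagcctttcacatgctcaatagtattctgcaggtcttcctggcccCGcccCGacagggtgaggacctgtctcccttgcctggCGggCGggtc
Efnb2: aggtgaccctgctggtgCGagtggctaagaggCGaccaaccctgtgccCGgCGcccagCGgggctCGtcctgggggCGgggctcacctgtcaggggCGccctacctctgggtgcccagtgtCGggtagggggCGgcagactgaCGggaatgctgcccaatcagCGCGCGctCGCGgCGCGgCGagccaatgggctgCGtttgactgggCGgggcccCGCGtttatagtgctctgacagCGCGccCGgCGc
Ephb6: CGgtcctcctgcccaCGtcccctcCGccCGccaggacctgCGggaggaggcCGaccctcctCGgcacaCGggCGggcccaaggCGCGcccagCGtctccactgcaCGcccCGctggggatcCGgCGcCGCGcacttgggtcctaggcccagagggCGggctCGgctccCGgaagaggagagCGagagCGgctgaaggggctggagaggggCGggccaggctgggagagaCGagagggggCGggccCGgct

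The neighbouring class 3 genes thus differ widely in CG, with Sema3c dense in it and Sema3a, Sema3d and Sema3e sparse. A RefSeq promoter was matched for 44 of the 50 members, all but Efnb3, Plxna1, Plxna4, Sema3b, Sema3f and Sema6a. Where a gene had several windows, the one with the most CG was used. The median was 16.5 CG per window over the members, 12 over 15614 measured genes and 18 over the 8060 of these above the median level. All 44 members and 94.2% of the measured genes held at least 1 CG. A GC content of at least 50% together with an observed over expected CG ratio of at least 0.6, a usual definition of CpG island sequence, was met by 56.8% of the members, 48.3% of the measured genes and 72.3% of those above the median level. By outcome, the median was 17.5 CG for 8 members that rose, 16 for 9 that fell and 16 for 27 that did not pass the test. The groups of members therefore had similar medians. These counts describe sequence and do not show where Fbxl10 was bound.

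Guidance genes moved in both directions in HA-Fbxl10 cells, and the 3 largest rises, those of Sema3c, Efnb2 and Efna5, were in ligands. Of the 50 members, 10 rose and 9 fell at an adjusted p under 0.05 in limma, and 31 did not pass. That is 19 of 50, against 21.1% of all genes. Brighter genes pass more often. Of 22 members above the median level of all genes 15 passed, against 37% of all such genes, and of 7 members below the lower quartile 1 passed. Among ligands 8 rose and 4 fell of 28, and among receptors 2 rose and 5 fell of 22, against 10.5% of all genes higher and 10.6% lower. The median log2 fold change, HA-Fbxl10 minus control, was -0.0025 for ligands and -0.06 for receptors, and -0.0043 for all genes, so both class medians lay close to 0. The 3 arrays of one group did not overlap those of the other for 24 members, against 36% of all genes. Members that did not pass had log2 fold changes from -0.28 (Efna2) to 0.20 (Efnb1), and 2 members reached a 2-fold difference.

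**Figure D1:**
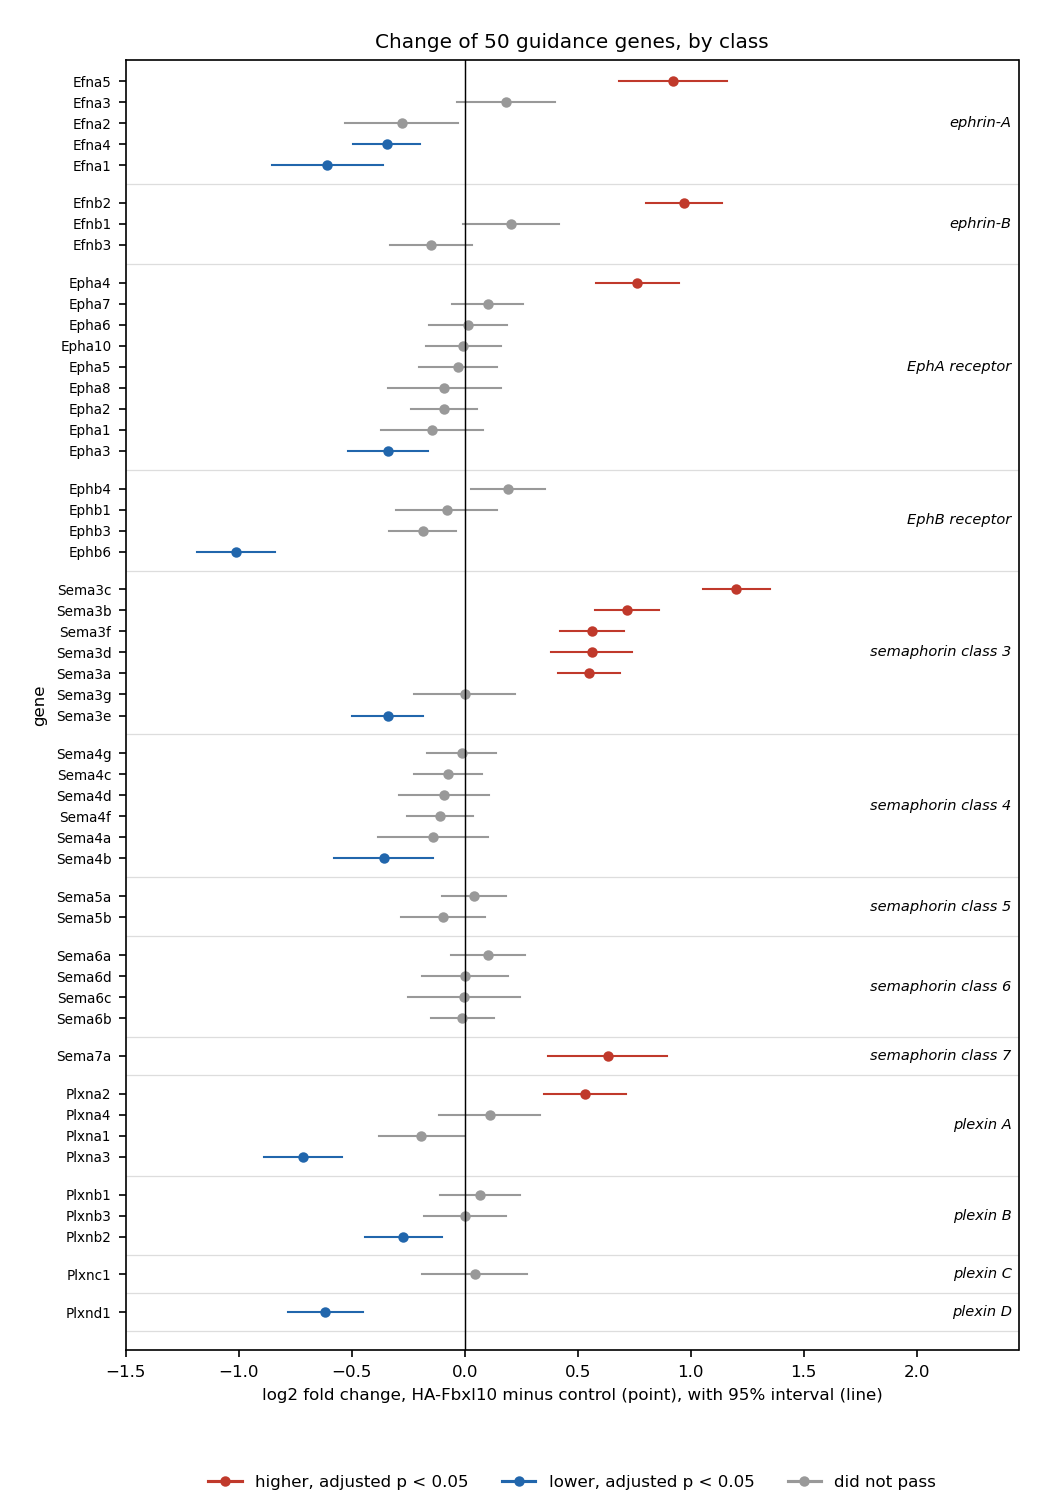
Log2 fold change (HA-Fbxl10 minus control, x axis) of the 50 genes, grouped by class, with 95% intervals from limma (3 arrays per group). Red points rose and blue points fell at an adjusted p under 0.05, and grey points did not pass. Class 3 semaphorins hold 5 of the 10 rises, and the transmembrane classes 4 to 6 lie near 0 except for Sema4b.

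Secreted class 3 semaphorins were the class with the most changes, with 5 of 7 members higher, 1 lower and 1 not past the test. Of all genes 21.1% passed. The 5 class 3 genes above the median level all passed, against 37% of all such genes. The 6 that passed are not separate cases, as they lie in clusters on chromosomes 5 and 9. Other genes near them had median log2 fold changes of 0.22 and 0.16. Their median log2 fold change was 0.56. Of the 12 semaphorins of classes 4 to 6, 0 rose and 1 fell, with a median of -0.04. Of those 12, Sema4b and Sema4c had a mean level above the median of all genes (5.36). RMA compresses changes in dimmer genes, and its part in the median of these classes was not tested.

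Sema3c, a secreted ligand known from heart outflow tract and vessel development, read 7.45, 7.47 and 7.59 in control and 8.69, 8.76 and 8.68 in HA-Fbxl10 samples (log2 level). The lowest HA-Fbxl10 array lay more than 1 log2 unit above the highest control array. The difference was 1.20 ± 0.07 (SE, limma adjusted p = 5.31e-06), or 2.30-fold, the largest rise among the members.

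Sema3a, the prototype repellent of growth cones, had the highest mean signal of the 50 (11.45). Its log2 level was 11.18, 11.15 and 11.18 in control and 11.73, 11.75 and 11.68 in HA-Fbxl10 samples. The arrays of each group were tightly placed and did not overlap, and the difference was 0.55 ± 0.06 (SE, adjusted p = 0.000272). Sema3d, which acts on neural crest and endothelial cells, read 3.89, 3.92 and 4.03 in control and 4.65, 4.43 and 4.44 in HA-Fbxl10 samples. The groups did not overlap and the difference was 0.56 ± 0.08 (adjusted p = 0.00107), but both group means lay below the median of all genes (5.36), where fold changes are compressed.

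Sema3e went the other way. This ligand, which binds Plxnd1 directly without a neuropilin, read 8.96, 9.03 and 9.11 in control and 8.65, 8.77 and 8.65 in HA-Fbxl10 samples. Every HA-Fbxl10 array was below every control array, and the difference was -0.34 ± 0.07 (adjusted p = 0.0071).

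Sema3b and Sema3f, a pair of neighbouring genes on chromosome 9 that encode neuropilin ligands studied as tumour suppressors, both rose. Sema3b read 5.86, 5.96 and 5.91 in control and 6.63, 6.60 and 6.66 in HA-Fbxl10 samples, a difference of 0.72 ± 0.06 (adjusted p = 7.28e-05). Sema3f read 8.50, 8.38 and 8.45 in control and 9.03, 9.02 and 8.98 in HA-Fbxl10 samples, a difference of 0.56 ± 0.06 (adjusted p = 0.000303). For each of the pair the spread within a group was far smaller than the gap between groups. Sema3g, the remaining class 3 gene, had a difference of 0.00 with a 95% interval of -0.22 to 0.22, at a mean level of 4.49.

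Sema7a, the lipid-anchored semaphorin that binds integrins and Plxnc1, read 5.03, 4.72 and 4.51 in control and 5.41, 5.32 and 5.42 in HA-Fbxl10 samples. Control arrays were spread widely but stayed below all HA-Fbxl10 arrays, and the difference was 0.63 ± 0.12 (adjusted p = 0.00427). Its control mean (4.75) lay below the median of all genes. Sema4b, a transmembrane semaphorin, read 6.71, 6.49 and 6.89 in control and 6.32, 6.40 and 6.30 in HA-Fbxl10 samples. Its groups came within 0.1 of each other, and the fall of -0.36 ± 0.10 (adjusted p = 0.0264) did not pass when replicate 1 or 3 was left out from the control or the HA-Fbxl10 arrays (0.0641 to 0.0891) or with array medians subtracted (0.0553). Sema4c, a transmembrane ligand of Plxnb2, read 7.43, 7.44 and 7.57 in control and 7.36, 7.40 and 7.45 in HA-Fbxl10 samples and did not pass, with a 95% interval of -0.23 to 0.08. Over the 6 genes of classes 5 and 6, mean levels were 3.85 (Sema6d) to 4.97 (Sema6b) and log2 fold changes ran from -0.10 (Sema5b) to 0.10 (Sema6a).

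**Figure D2:**
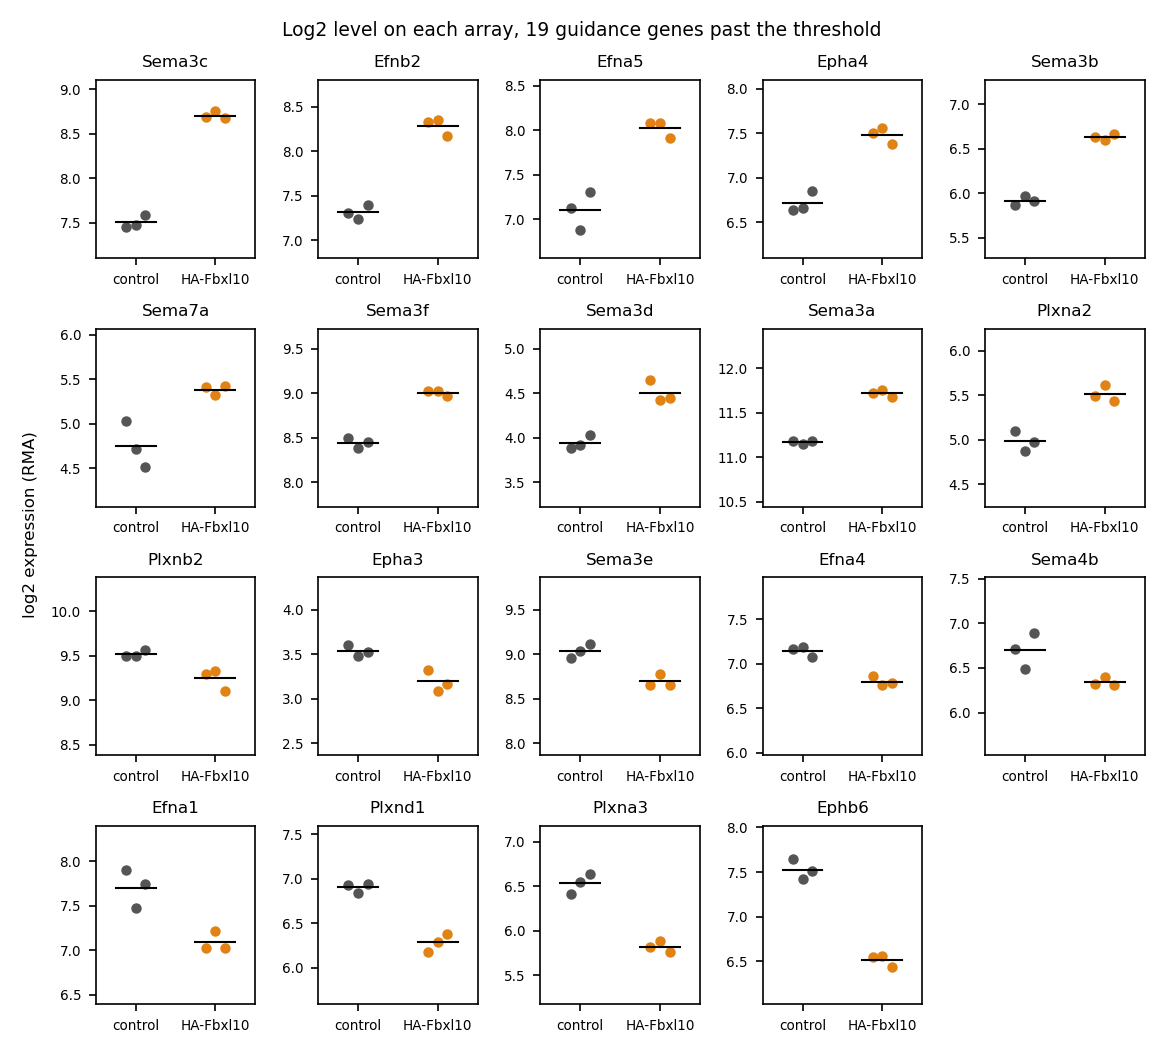
Log2 expression (y axis, each panel spanning 2 log2 units) of the 19 genes past the threshold on each of 3 control (grey) and 3 HA-Fbxl10 (orange) arrays, with group means as lines. Panels run from the largest rise, Sema3c (1.20), to the largest fall, Ephb6 (-1.01), and the groups do not overlap in any panel.

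Of 9 plexins, the signalling receptors of semaphorins, 1 rose and 3 fell, with a median log2 fold change of 0.0012. That is 44.4%, against 21.1% of all genes. Of the 5 plexins above the median level 3 passed, against 37% of all such genes. Plxna3, a co-receptor with neuropilins for secreted semaphorins, read 6.42, 6.55 and 6.64 in control and 5.81, 5.89 and 5.76 in HA-Fbxl10 samples. The groups were well apart, with a difference of -0.72 ± 0.08 (SE, limma adjusted p = 0.000223). Its paralog Plxna2 read 5.11, 4.87 and 4.98 in control and 5.49, 5.61 and 5.44 in HA-Fbxl10 samples. All HA-Fbxl10 arrays were higher, with a difference of 0.53 ± 0.08 (adjusted p = 0.00148), so 2 plexins of the same class differed in opposite directions.

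Plxnd1, the receptor of Sema3e and a regulator of vessel patterning, read 6.93, 6.84 and 6.94 in control and 6.18, 6.29 and 6.38 in HA-Fbxl10 samples. The groups did not overlap, and the fall was -0.62 ± 0.07 (adjusted p = 0.000405). Receptor and ligand were thus both lower. Plxnb2, which binds class 4 semaphorins, read 9.49, 9.50 and 9.57 in control and 9.30, 9.33 and 9.11 in HA-Fbxl10 samples. The difference of -0.27 ± 0.08 (adjusted p = 0.0292) was small and lost its call without any 1 array other than HA-Fbxl10 replicate 2 (adjusted p of 0.053 to 0.0977) and with array medians subtracted (0.105). Plxna1 read 8.02, 8.11 and 8.32 in control and 7.98, 7.95 and 7.94 in HA-Fbxl10 samples and did not pass (adjusted p = 0.147). Plxna4, Plxnb1, Plxnb3 and Plxnc1 had log2 fold changes of 0.0012 to 0.11, and none of these 4 passed.

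Of 8 ephrins, 2 rose and 2 fell (50%), against 21.1% of all genes. Of the 5 ephrins above the median level 4 passed, against 37% of all such genes. The rises of Efnb2 and Efna5 were the largest among the members after that of Sema3c. Efnb2, the transmembrane ligand of Ephb4 that marks arterial endothelium and patterns mesenchyme, read 7.31, 7.24 and 7.40 in control and 8.33, 8.36 and 8.17 in HA-Fbxl10 samples. The HA-Fbxl10 arrays were all higher by a wide margin, and the difference was 0.97 ± 0.08 (SE, limma adjusted p = 3.75e-05), or 1.96-fold. Efna5, a lipid-anchored ligand that shapes topographic maps in the brain, read 7.12, 6.89 and 7.31 in control and 8.08, 8.09 and 7.91 in HA-Fbxl10 samples. It was higher on all 3 HA-Fbxl10 arrays, with a difference of 0.92 ± 0.11 (adjusted p = 0.000356).

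The falls were those of Efna1 and Efna4. Efna1, the ligand of Epha2 first found as a cytokine-induced endothelial gene, read 7.90, 7.47 and 7.74 in control and 7.03, 7.22 and 7.03 in HA-Fbxl10 samples. The groups did not overlap although the control arrays were spread, and the difference was -0.61 ± 0.11 (adjusted p = 0.00356). Efna4 read 7.17, 7.19 and 7.08 in control and 6.86, 6.76 and 6.78 in HA-Fbxl10 samples, a fall of -0.35 ± 0.07 (adjusted p = 0.00455). Efna3, which lies between these 2 genes on chromosome 3, read 4.92, 4.83 and 4.54 in control and 4.99, 4.90 and 4.94 in HA-Fbxl10 samples. Its arrays overlapped, it did not pass (95% interval -0.03 to 0.40), and its signal was below the median of all genes. Efna2 (-0.28), Efnb1 (0.20) and Efnb3 (-0.15, all log2 fold changes) did not pass either.

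Of 13 Eph receptors 1 rose and 2 fell, or 23.1%, which is near the share of all genes (21.1%). Of the 13, 5 had a mean level below the lower quartile of all genes. Ephb6, a member with an inactive kinase domain that modulates other Eph receptors, read 7.65, 7.42 and 7.51 in control and 6.54, 6.55 and 6.44 in HA-Fbxl10 samples. All 3 HA-Fbxl10 arrays were far below the control arrays, and the difference of -1.01 ± 0.08 (SE, limma adjusted p = 3.35e-05), or 2.02-fold, was the largest fall among the members. Epha4, which binds ephrins of either class, read 6.63, 6.66 and 6.85 in control and 7.50, 7.56 and 7.37 in HA-Fbxl10 samples. It was higher on every HA-Fbxl10 array, with a difference of 0.76 ± 0.08 (adjusted p = 0.000229).

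Epha3 passed with a difference of -0.34 ± 0.08 (adjusted p = 0.0126) but read only 3.61, 3.48 and 3.53 in control and 3.33, 3.09 and 3.17 in HA-Fbxl10 samples. Both group means lay below the lower quartile of all genes (3.75), where signal and background are not told apart, and the call ended without control replicate 1 (0.0539) or HA-Fbxl10 replicate 3 (0.0501). Epha2, a receptor of Efna1 and the Eph gene with the highest mean signal here (9.04), read 9.11, 9.06 and 9.09 in control and 9.01, 9.05 and 8.92 in HA-Fbxl10 samples. It did not pass, with a 95% interval of -0.24 to 0.05. Ephb4, the receptor of Efnb2, read 7.74, 7.91 and 7.80 in control and 8.04, 8.07 and 7.92 in HA-Fbxl10 samples, a difference of 0.19 (adjusted p = 0.0985). Ephb3 differed by -0.19 (adjusted p = 0.0754). Ephb3 and Ephb4 had groups that did not overlap but did not pass the test. Epha5, Epha6, Epha7 and Ephb1 lay below the lower quartile of all genes and had log2 fold changes of -0.08 to 0.10.

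Several members lie next to each other on a chromosome. For each of the 19 genes that passed, the median log2 fold change was taken over the expressed genes nearest to it, 15 on each side without other members. For Plxna2 17 neighbours were available, as it is near the end of chromosome 1. In 16 of 19 the gene had the sign of its neighbours' median, and in 14 its own change was more than 2 times as large. The 19 were picked for their own change, and a median over many genes tends to be small, so the count of 14 is no test. Genes that lie together also share neighbours, so the 19 are not separate cases. Sema3d, Sema3a, Sema3e and Sema3c follow each other on chromosome 5 with at most 3 measured genes between any adjacent pair, and their neighbours had a median of 0.22. Sema3c (1.20) stood far above this value and Sema3e (-0.34) went against it. A running median over 31 expressed genes was also removed, from a window that held the gene itself and any expressed members near it. Sema3c was then at 0.97, Sema3a at 0.32 and Sema3e at -0.55, and these 3 kept their calls. Sema3b and Sema3f, with 3 measured genes between them, had neighbours at 0.16 and kept their calls at 0.55 and 0.40.

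On chromosome 3 the neighbours of Efna1 and Efna4 had a median of -0.35, as low as Efna4 itself (-0.35). With the running median removed Efna4 was at 0.0062 (adjusted p = 0.985) and Efna1 at -0.26 (adjusted p = 0.165), and neither passed. Plxnb2 went to -0.10 (adjusted p = 0.458). Plxnd1 kept its call at -0.37 (adjusted p = 0.00863). Epha4 had neighbours at -0.02 and Efna5 at 0.08, against rises of 0.76 and 0.92 for the genes themselves. Ephb6 had neighbours at -0.11 and remained at -0.89. Epha3, Plxna2, Sema3d and Sema7a were below the median level and kept their values by construction.

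**Figure D3:**
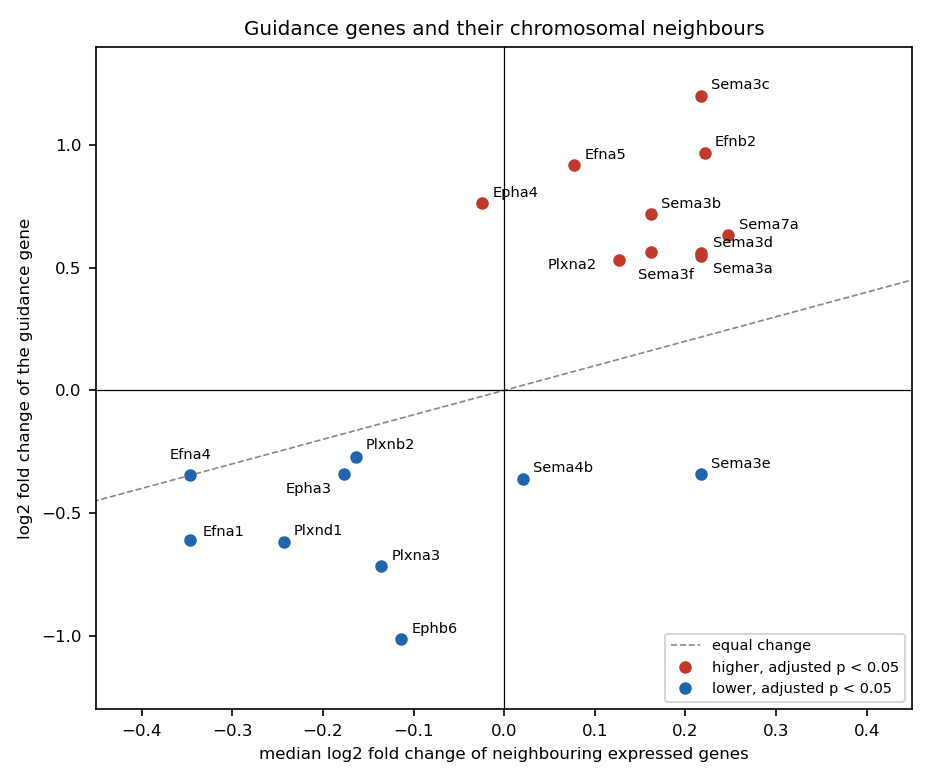
Log2 fold change of each of the 19 genes past the threshold (y axis) against the median log2 fold change of up to 30 neighbouring expressed genes (x axis), with a dashed line of equal change. Efna4 lies on that line, Sema3c, Efnb2, Efna5, Epha4 and Ephb6 lie far from it, and Sema3e and Sema4b fall where their neighbours' median is above 0.

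Co-receptors, other guidance systems and effectors were read from a list of 65 genes, 64 of them measured, of which 20 rose and 6 fell at an adjusted p under 0.05 (all genes: 10.5% and 10.6%). Of the 40 list genes above the median level of all genes 19 passed, against 37% of all such genes. The median log2 fold change of the list was 0.02. Of 8 semaphorin co-receptors 5 rose and 1, L1cam (-0.37), fell. Nrp1, the neuropilin that binds Sema3a, read 8.43, 8.38 and 8.49 in control and 9.05, 9.21 and 8.98 in HA-Fbxl10 samples, a difference of 0.65 ± 0.08 (SE, limma adjusted p = 0.0004). Nrp2, the neuropilin of Sema3f, was higher by 0.24 ± 0.07 (adjusted p = 0.0349), a call that was lost without any 1 array other than control replicate 3 (0.0547 to 0.114) and with neighbours' medians removed (0.13). Itgb1 (0.25) and Met (0.23) were the other co-receptors that rose. Itgb1 did not pass without control replicate 1, HA-Fbxl10 replicate 1 or HA-Fbxl10 replicate 2 (0.0505 to 0.0637) or with neighbours' medians removed (0.643), and Met did not pass when any single array other than control replicate 3 was left out (0.062 to 0.154). Without any of the 3 arrays named for Itgb1, 2 of the 5 rises were left, those of Nrp1 and Kdr. L1cam was not past the threshold without HA-Fbxl10 replicate 3 (0.0514). The VEGF receptor Kdr, which pairs with Nrp1, rose by 0.51 ± 0.09 from a control level (3.69) below the lower quartile of all genes.

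Of 5 netrins measured, the basement membrane netrin Ntn4 rose by 0.58 ± 0.07 and Ntn5 fell by 0.49 ± 0.07 on the log2 scale. Neo1, the receptor of netrins and RGM proteins, read 8.62, 8.62 and 8.79 in control and 9.64, 9.61 and 9.57 in HA-Fbxl10 samples, a difference of 0.93 ± 0.07 (limma adjusted p = 3.15e-05). The Unc5 receptors Unc5b and Unc5c were each higher by 0.42. In the slit system 3 of 10 genes rose and 0 fell, against 10.5% of all genes higher and 10.6% lower. Of the 5 above the median level 2 passed, which is near the 37% of all such genes. The ligand Slit2 was higher by 0.73 ± 0.08 (adjusted p = 0.000345), its receptor Robo1 by 0.81 ± 0.08 (adjusted p = 0.000158), and Slit3 by 0.38 ± 0.08 (adjusted p = 0.0102). With neighbours' medians removed Slit2 was at 0.40 and still passed (0.0114).

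Of 17 effectors of semaphorins and plexins 4 rose and 2 fell (35.3%), against 21.1% of all genes. Of the 13 above the median level 6 passed, against 37% of all such genes. The rises were those of Rras2 (0.49), Dpysl3 (0.39), Arhgef12 and Dpysl2, while Crmp1, Dpysl4 and Dpysl5 did not pass. Dpysl2 is a mediator of Sema3a responses that binds tubulin. It was higher by 0.49 ± 0.06 (limma adjusted p = 0.000529) and by 0.29 with neighbours' medians removed (0.0118). Of the 6 calls, that of Gipc1 (-0.21) ended without any single array (0.0588 to 0.0936) and with array medians subtracted (0.164). That of Arhgef12 (0.25) ended without any single array other than control replicate 3 (0.0639 to 0.135). With neighbours' medians removed Arhgef11 went from -0.39 to -0.0043 and did not pass. Arhgef12 was itself the median of its window, which holds the gene, so its value there was exactly 0 and it did not pass either. Of 15 effectors of Eph receptors 4 rose and 2 fell (40%), and of the 10 above the median level 3 passed. Ngef, with a log2 fold change of -0.27, did not pass without replicate 3 of either group, control replicate 1 or HA-Fbxl10 replicate 2 (0.0537 to 0.0851), with quantile normalisation (0.0672), with array medians subtracted (0.0862) or with a variance trend (0.0505). Rasa1 (0.44) did not pass with neighbours' medians removed (0.0722). Chn1, a Rac-inactivating protein downstream of Epha4, read 3.95, 3.88 and 4.14 in control and 4.78, 4.96 and 4.94 in HA-Fbxl10 samples, a difference of 0.90 ± 0.09 (adjusted p = 0.000114). Vav3, a guanine nucleotide exchange factor, was also higher by 0.90 ± 0.10, from a control level of 3.48 that lay below the lower quartile. As Kdr, L1cam, Ntn5, Slit3, Chn1, Ngef and Vav3 were below the median level, removal of neighbours' medians left their values unchanged by construction. Tiam1, a Rac exchange factor that binds Eph receptors and ephrin-B proteins, fell by 0.51 ± 0.08 on the log2 scale (adjusted p = 0.00133). It was at -0.26 with the running median of its neighbours removed (adjusted p = 0.0514). Adam10, the protease that cleaves ephrin-A complexes, was higher by 0.26 ± 0.07 (adjusted p = 0.0182). Its call ended with quantile normalisation (0.0563), with neighbours' medians removed (0.36) and when control replicate 1, control replicate 3 or HA-Fbxl10 replicate 2 was left out (0.0532 to 0.0662).

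**Figure D4:**
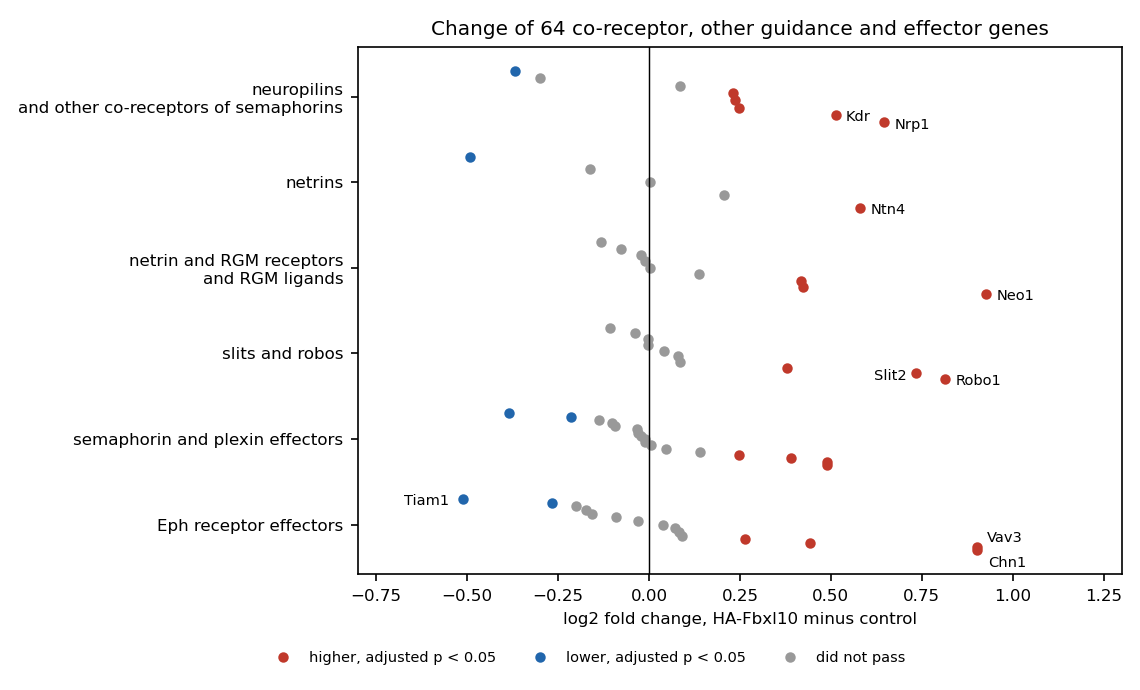
Log2 fold change (x axis, HA-Fbxl10 minus control) of the 64 measured co-receptor, other guidance and effector genes, by role (y axis). Red points rose and blue points fell at an adjusted p under 0.05, and named points changed by at least 0.5. The largest rises are Neo1 (0.93), Chn1 and Vav3 (both 0.90) and Robo1 (0.81).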

How the data were processed

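Log2 expression values per probe set were deposited by the authors, made with RMA per the submitters' processing notes. For RMA, neither version nor settings were named in the sources used here. Each array took 300 ng of RNA per the labels' protocols. RMA equalises the arrays' probe distributions, which hides a shift shared by most genes, and it compresses low values. Over the genes used, array medians were 5.29 to 5.41. Probe sets with 1 gene in the platform annotation (21789 of 35556) were named, symbols were updated through RefSeq (GRCm38.p6), and the probe set with the highest mean was used per gene. Groups were compared over all 19936 genes with limma 3.58.1 in R 4.3.3 (lmFit, eBayes, two-sided, Benjamini-Hochberg, threshold 0.05), which was tested on simulated data. No filter on dim genes was applied. Levels of different probe sets do not rank amounts of RNA. Gene order came from RefSeq, and no build is named for the values in the sources used here. The number of arrays limits precision.

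Members, gene lists and tests were chosen with earlier results of these data known. All members past the threshold, any other member with an absolute log2 fold change of 0.3 or more (there was none), the 5 members with the highest mean and list genes past the threshold with a change of 0.5 or more were to be named. Other genes were named after their values were seen. Expressed means above the median of the gene means (5.36). Alternatives were quantile normalisation, array medians subtracted, the dimmest 30% of genes left out, probe sets averaged, variance trends, array weights, a replicate block, each array left out, an adjusted p of 0.01 and removal of neighbours' running medians. Scan dates and batches were not analysed here, and a further group of listed genes is not reported here.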

Additional observations from a re-analysis of the deposited data

How the results depend on the processing

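All 10 rises among the members kept their calls under every alternative run. Removal of the running median changed no value of Plxna2, Sema3d and Sema7a, or of Epha3 among the falls, so it was no check of them. The 9 falls were 6 to 9 without single arrays, 7 with array medians subtracted and 7 with the running median of neighbours removed (6 of them shared), which took Efna4 to 0.00622. At an adjusted p of 0.01, 16 members and 17 of the 26 list genes passed. Without single arrays 16 to 19 members and 19 to 24 list genes passed. The median log2 fold change of the ligands was 0.0523 with array medians subtracted, and its sign is not settled. That of the receptors ran from -0.0921 to -0.00101 over its alternatives. Of 49 genes followed through the alternatives, Efna4 alone changed sign. The dimmest 30% held 10 members, so 40 were tested there. Deviations of same-numbered samples of the groups had correlations of 0.09, -0.28 and -0.09, and those of other pairs ran from -0.22 to 0.28. No pairing by number was seen, but 3 arrays per group cannot exclude one. With the replicate block 17 members and 20 list genes passed, and Plxnb2 (adjusted p = 0.0729) and Sema4b (0.0548) did not.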

Other observations

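Of the 50 guidance genes, 4 had a second probe set, and none of these 4 genes passed the test. The second probe sets differed between HA-Fbxl10 and control means by -0.15 for Epha10, 0.05 for Ephb1 and 0.03 for Sema4d on the log2 scale, against -0.0074, -0.08 and -0.09 for those used above. The pair of Sema6b probe sets held identical values on all 6 arrays.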
